A study of Homo sapiens with 4 samples.

Results

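Fc gamma receptors are the surface receptors with which myeloid cells recognise IgG bound to a target. FCGR1A is the high-affinity receptor, FCGR2A and FCGR2C are activating low-affinity receptors, and FCGR2B is the inhibitory one. Activating receptors signal through an ITAM, an immunoreceptor tyrosine-based activation motif, which lies in the tail of FCGR2A and FCGR2C or in a partner adaptor such as FCER1G or TYROBP. SRC family kinases such as LYN and FGR phosphorylate the motif, and the kinase SYK then docks on it. These genes are typical of monocytes, macrophages and neutrophils. The 9 genes described here are the 4 receptors, the adaptors FCER1G and TYROBP, and the kinases SYK, LYN and FGR, out of 18885 genes listed for the series. They were selected on their symbols as 1 receptor and signalling group, with the difference between knockdown and control already known from an earlier look at these libraries. Their levels and differences are therefore given as a description, with no p.

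MV4-11 cells, an established line from a human acute myeloid leukaemia, were profiled by RNA-seq as controls (NC, 2 libraries) and after knockdown of ANP32B by shRNA (sh-ANP32B, 2 libraries). The labels list no shRNA for the NC cells, whereas the study describes an sh-NC control. The study made its cells by lentiviral infection and puromycin selection, and the column names of the knockdown libraries carry the mark S3, read here as hairpin 3 of the study, so 1 hairpin is represented. The labels do not say whether the 2 libraries of a group came from separate cultures, and the study's general statement on repeated experiments does not name the RNA-seq, so their spread may be technical. The values are TPM, read density over gene length scaled to a fixed total per library, so levels can be compared between genes. ANP32B (ENSG00000136938) itself had 358 and 364 TPM in NC against 54.1 and 49.3 TPM in sh-ANP32B, 14.3% of the control mean. Markers fixed for the myeloid blast were all listed, among them CD33 with 52.8 and 53.0 TPM in NC and HOXA9 with 184 and 186 TPM. Of the 7, 3 were called higher and 1 lower in sh-ANP32B. ITGAM, an integrin of mature myeloid cells, had 3.51 and 3.59 TPM in NC and 26.1 and 26.4 TPM in sh-ANP32B, and MEIS1 had 44.2 and 47.9 TPM against 30.2 and 29.6 TPM. Of the defining genes of other blood cells, CD3D, CD3E, CD3G, MS4A1 and HBB were not listed, and the lowest mean over the libraries of any listed gene was 0.5 TPM. Some markers of other lineages were present and differed between the groups. The 3 of 8 T and NK cell markers listed summed to between 118.9 and 126.4 TPM in all libraries. The 2 of 5 mast cell and basophil markers listed summed to 647 and 657 TPM against 1272 and 1291 TPM, and the 1 of 6 erythroid and megakaryocyte markers listed stayed below 1.5 TPM. Among them, CD2 had 0.521 and 0.442 TPM in NC against 3.62 and 3.63 TPM, and TPSAB1 had 643 and 653 TPM against 1270 and 1290 TPM. Their part in the values below was not tested. In bulk RNA, more cells of one state and more RNA per cell cannot be told apart.

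Of the receptors and adaptors, 6 of 6 had more RNA in both sh-ANP32B libraries than in either NC library, from 1.63 times the control mean for FCGR2A to 10.7 times for FCGR2C. The adaptors TYROBP and FCER1G became the most abundant of the 9 transcripts, at 10.6 and 5.99 times their control means. Of the kinases, FGR was at 3.93 times its control mean, whereas LYN was at 1.22 times and SYK at 92.6% of it. The 9 genes had a median log2 difference of 1.88, beside 0.08 for the 16937 genes tested. All differences are sh-ANP32B minus NC on the scale log2(TPM + 1), and the standard errors come from limma. A gene was called at an adjusted p below 0.05 (limma with Benjamini-Hochberg adjustment) and a log2 difference beyond 0.5. By these limits 7 of the 9 genes were called higher and 0 lower, where 17.9% of all genes tested were higher, 10.1% were lower and 28.0% were called in either direction. The groups did not overlap, with sh-ANP32B higher, for 8 of the 9, beside 42.5% of all genes. They did not overlap with sh-ANP32B lower for 1 of the 9, SYK, beside 32.1%. Since the genes were chosen with this contrast known, nothing is read from these counts. All 9 were above 1 TPM in every library, so none entered only through its higher group.

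**Figure D1:**
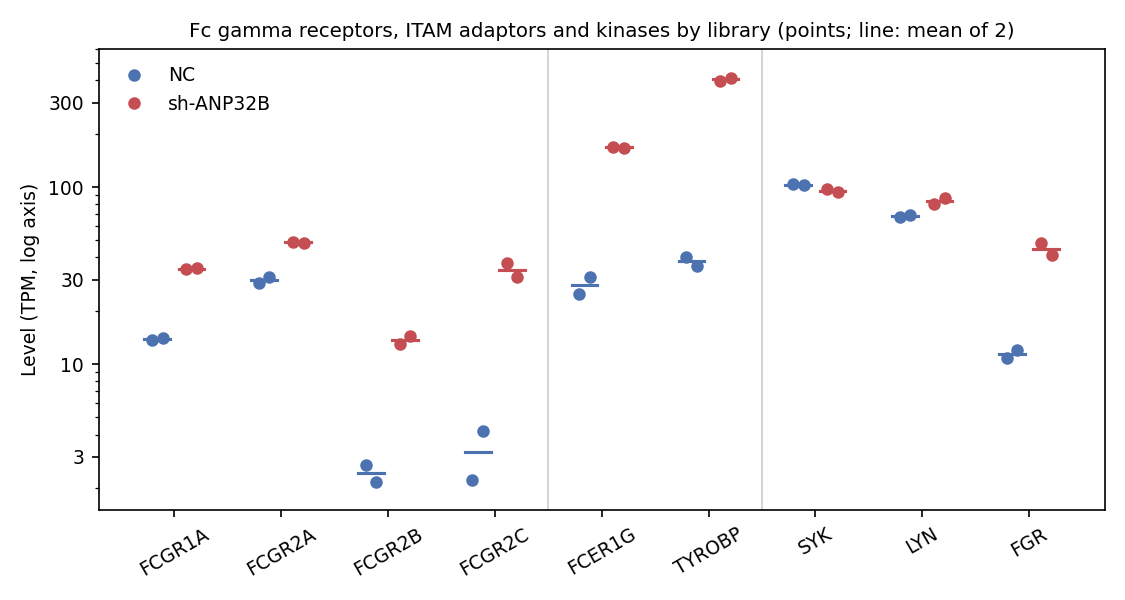
Level of each of the 9 genes in TPM on a log axis, with NC libraries in blue and sh-ANP32B libraries in red (points: 1 library each, line: mean of 2). Receptors stand on the left, adaptors in the middle and kinases on the right. The 2 colours are far apart for TYROBP and FCER1G and close together for SYK and LYN.

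FCGR1A (ENSG00000150337) lies on chromosome 1 of hg38 from 149782671 to 149791675, on the plus strand. It had 13.7 and 14.1 TPM in NC and 34.3 and 34.9 TPM in sh-ANP32B. The replicates were close and the groups lay well apart, with a log2 difference of 1.26 (standard error 0.072). FCGR1A has near-copies on the same chromosome, and 48.4% of the stretches of 100 bases in its main transcript also occur in the transcripts of other genes, mostly FCGR1BP and FCGR1CP. These copies were listed too, and their values moved in the same direction. FCGR1BP had 2.58 and 2.31 TPM against 11.9 and 9.36 TPM, and FCGR1CP had 2.55 and 4.61 TPM against 9.89 and 11.1 TPM. The sum of the 3 genes was 18.9 and 21.0 TPM in NC and 56.1 and 55.4 TPM in sh-ANP32B, 2.80 times the control mean. A second gene named FCGR1BP (ENSG00000291135), which shares 34.0% of the stretches of 100 bases, is not in this sum, and the sum still depends in part on how reads were divided among genes of different length. On the opposite strand the histone gene H2BC18 shares 177 exonic bases with FCGR1A and had 0.141 and 0.229 TPM against 2.01 and 1.55 TPM, and without the strand setting reads of the shared bases cannot be told apart. FCGR1BP, FCGR1CP and H2BC18 were named after their values were seen.

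FCGR2A, FCGR2C and FCGR2B follow each other on the plus strand of chromosome 1, at 161505430 to 161524013, 161581339 to 161605662 and 161663143 to 161678654. Gaps of 57.3 and 57.5 kb separate them. FCGR2A (ENSG00000143226), whose tail carries its own ITAM, had 28.5 and 31.1 TPM in NC and 49.1 and 48.2 TPM in sh-ANP32B. It was the most abundant receptor in each library, and its difference was the smallest of the 4 receptors, at 0.69 (standard error 0.068). Of all genes tested, 14.4% had a higher difference.

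FCGR2B (ENSG00000072694), whose tail carries an inhibitory motif in place of the ITAM, had 2.68 and 2.17 TPM in NC and 12.9 and 14.4 TPM in sh-ANP32B. Its log2 difference was 2.10 (standard error 0.150). FCGR2C (ENSG00000244682), which joins an outer part like that of FCGR2B to a tail like that of FCGR2A, had 2.21 and 4.18 TPM in NC and 37.2 and 31.0 TPM in sh-ANP32B. NC replicate 2 was well above NC replicate 1, and the log2 difference of 3.1 (standard error 0.242) moved between 2.76 without NC replicate 1 and 3.45 without NC replicate 2. In NC the ranges of FCGR2B and FCGR2C overlapped, and in sh-ANP32B FCGR2C lay above FCGR2B in both libraries.

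The separate levels of FCGR2B and FCGR2C are uncertain, because their transcripts share long stretches. Of the stretches of 100 bases in the main transcript of FCGR2C, 60.2% also occur in FCGR2B and 11.3% in FCGR2A. Of those in FCGR2B, 28.6% occur in FCGR2C. A read from a shared stretch has more than 1 possible source, and the sources used here do not give the tool that divided such reads. The sum of FCGR2B and FCGR2C also depends on that division, since TPM divides reads by gene length and the genes differ in length. The sum was 4.89 and 6.35 TPM in NC and 50.2 and 45.4 TPM in sh-ANP32B, or 8.51 times the control mean. FCGR2A shares 4.32% of its stretches with FCGR2C, and it also shares 864 exonic bases with ENSG00000289273, an lncRNA gene on the same strand that was not listed. FCGR2B shares 485 exonic bases with an lncRNA gene on the opposite strand. FCGR3A and FCGR3B, the other low-affinity receptors of this locus, were not listed. HSPA6, a heat shock gene of the locus named after its values were seen, had 2.17 and 1.93 TPM in NC and 3.66 and 3.39 TPM in sh-ANP32B.

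The make-up of the receptor RNA differed between the groups. The 4 receptors together had 47.2 and 51.6 TPM in NC and 133.6 and 128.6 TPM in sh-ANP32B. FCGR2A held 60.5% and 60.4% of this sum in NC, and 36.8% and 37.5% in sh-ANP32B. FCGR2C held 4.69% and 8.11% in NC, and 27.9% and 24.1% in sh-ANP32B. The share of FCGR2B, the inhibitory receptor, was 5.67% and 4.21% in NC and 9.69% and 11.2% in sh-ANP32B. FCGR1A held close to the same share in all libraries, between 25.7% and 29.1%. The ratio of FCGR2A to the sum of FCGR2B and FCGR2C was 5.84 and 4.91 in NC and 0.979 and 1.06 in sh-ANP32B. These shares rest on the same division of shared reads as the levels.

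**Figure D2:**
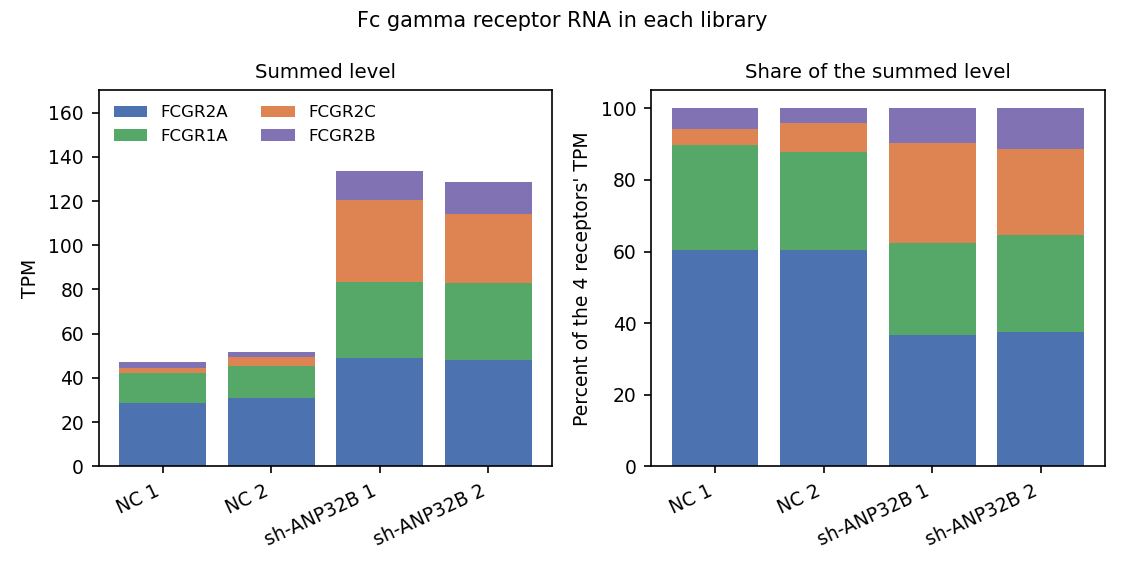
RNA of the 4 Fc gamma receptors in each library, as summed TPM on the left and as percent of that sum on the right, stacked by gene. The sum is 47.2 and 51.6 TPM in NC and 133.6 and 128.6 TPM in sh-ANP32B, and the FCGR2A part shrinks from about 60% of it to 36.8% and 37.5%.

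The promoters of FCGR1A and FCGR2A hold a run of letters in common, shown because it is the longest that start regions of different genes of the group share, among the 7 genes with a window used. Windows from 250 bases before to 50 bases after each transcription start were taken from RefSeq (GRCh38.p14) for 7 of the 9 genes, 11 windows in all. For FCGR2C and LYN none was used. The run has 20 bases and lies at chr1:149782642-149782661 in FCGR1A and chr1:161505406-161505425 in FCGR2A. The 100 bases before each RefSeq start are given 5′ to 3′ on the plus strand, at chr1:149782594-149782693 and chr1:161505357-161505456, with the shared run in capitals.
FCGR1A: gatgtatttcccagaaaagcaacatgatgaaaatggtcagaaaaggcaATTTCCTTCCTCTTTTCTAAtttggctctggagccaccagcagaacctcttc
FCGR2A: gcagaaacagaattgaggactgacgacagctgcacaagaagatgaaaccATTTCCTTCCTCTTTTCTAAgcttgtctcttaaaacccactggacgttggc
The run starts 52 bases before the start of FCGR1A and 51 bases before that of FCGR2A. On either strand it was found in 2 of the 35116 promoter windows, these 2.

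The run contains TTCCTC, which read on the other strand is GAGGAA, the purine-rich core that the myeloid factor PU.1 (SPI1) is known to bind. GAGGAA was searched on both strands and was found in 6 of the 7 genes, beside 31.8% of all genes with a window, and in 7 of their 11 windows, beside 27.9% of all windows. FCER1G was the gene without a match. SYK, which was slightly lower in sh-ANP32B, had matches in 2 windows. Whether a match goes with the difference of a gene was not tested. TTCNNNGAA, the core of the site of STAT factors, was searched in the same way. It had 1 match in FCGR1A, 93 bases before the start, and 2 in 1 window of FCGR2B, and 7.66% of all windows hold it. The stretches holding the first GAGGAA of 3 further genes are given 5′ to 3′ on the strand of each gene, with the match in capitals, to show how varied its surroundings are. They lie at chr1:161662938-161663007 (plus strand), chr19:35908476-35908545 (minus strand) and chr1:27635292-27635361 (minus strand).
FCGR2B: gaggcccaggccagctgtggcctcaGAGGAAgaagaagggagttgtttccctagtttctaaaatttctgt
TYROBP: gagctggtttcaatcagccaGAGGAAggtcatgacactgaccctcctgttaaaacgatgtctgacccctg
FGR: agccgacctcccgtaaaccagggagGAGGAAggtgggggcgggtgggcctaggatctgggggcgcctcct
A match is a match of letters and no evidence of binding. SPI1 RNA had 250.3 and 257 TPM in NC and 361 and 361 TPM in sh-ANP32B, a log2 difference of 0.51.

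TYROBP (ENSG00000011600), the adaptor also called DAP12, serves many activating receptors of myeloid and NK cells. It lies on the minus strand of chromosome 19 from 35904401 to 35908295. It had 40.5 and 35.8 TPM in NC and 396 and 415 TPM in sh-ANP32B, which took it from percentile 75.9 to percentile 98.6 of the genes listed. The difference of 3.38 (standard error 0.068) was the largest of the 9 genes, and 0.10% of the genes tested had a higher one. The rank above FCGR2C did not hold at every setting. With a pseudocount of 0.1, FCGR2C had a difference of 3.44 and TYROBP one of 3.41. Without NC replicate 2, FCGR2C had 3.45 and TYROBP 3.29. At the other settings run TYROBP stayed above FCGR2C. None of the stretches of 50 bases in the main transcript of TYROBP occur in another gene. Its level therefore does not carry the doubt that touches the receptors.

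FCER1G (ENSG00000158869), the common gamma chain that FCGR1A and other Fc receptors need for signalling, lies on chromosome 1 from 161215234 to 161220699, 284.7 kb before FCGR2A. It had 24.9 and 30.9 TPM in NC and 169 and 165 TPM in sh-ANP32B, a log2 difference of 2.55 (standard error 0.102). It shares no stretch of 50 bases with another gene. In NC its range overlapped that of FCGR2A, and in sh-ANP32B it was above all 4 receptors in both libraries.

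Summed, the adaptors were at 8.67 times their control mean and the 4 Fc gamma receptors at 2.66 times. The receptors were not alike in this. FCGR2C was at 10.7 times, beside 10.6 for TYROBP and 5.99 for FCER1G, and FCGR2B plus FCGR2C at 8.51 times. FCGR2A and FCGR1A were at 1.63 and 2.49 times. Together the adaptors had 65.4 and 66.7 TPM in NC and 565 and 580 TPM in sh-ANP32B. Per TPM of the 4 receptors there were 1.39 and 1.29 TPM of adaptor in NC, and 4.23 and 4.51 TPM in sh-ANP32B. The ratio of FCER1G to FCGR1A was 1.81 and 2.20 in NC and 4.94 and 4.74 in sh-ANP32B. The ratio of TYROBP to FCER1G was 1.63 and 1.16 in NC and 2.34 and 2.51 in sh-ANP32B. The groups did not overlap in any of these ratios.

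By distance over the 4 libraries on the log2 scale, the genes nearest to TYROBP among 16928 others were FUCA1, ENSG00000274619 and CFD. FUCA1, which encodes a lysosomal fucosidase, had 48.7 and 46.9 TPM in NC and 313 and 322 TPM in sh-ANP32B. CFD, which encodes complement factor D, had 30.9 and 36.3 TPM in NC and 222 and 228 TPM in sh-ANP32B. ENSG00000274619, which had no symbol, was close to CFD, with 32.4 and 37.8 TPM against 228 and 238 TPM. Whether these entries are separate genes was not checked. Nearest to FCER1G were NABP1, ABCA7 and UBA7, and NABP1 had 31.8 and 34.5 TPM against 132 and 134 TPM.

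SYK (ENSG00000165025), the kinase that docks on a phosphorylated ITAM, had 104 and 102 TPM in NC and 97.1 and 94.0 TPM in sh-ANP32B. It was the most abundant of the 9 genes in NC and the third in sh-ANP32B, after both adaptors. Its log2 difference was -0.11 (standard error 0.045), inside the fold limit, and it kept a negative sign under every alternative that was run. LYN (ENSG00000254087), a SRC family kinase with activating and inhibitory roles, had 67.3 and 69.6 TPM in NC and 80.1 and 86.7 TPM in sh-ANP32B. Its log2 difference of 0.28 (standard error 0.058) was also inside the limit. For each TPM of the adaptors there were 1.59 and 1.54 TPM of SYK in NC, and 0.172 and 0.162 TPM in sh-ANP32B.

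FGR (ENSG00000000938), a SRC family kinase prominent in myeloid cells, lies on the minus strand of chromosome 1 from 27612064 to 27635185. It had 10.8 and 12 TPM in NC and 48.4 and 41.3 TPM in sh-ANP32B, a log2 difference of 1.88 (standard error 0.105). It stands apart from SYK and LYN, and the replicates of each group lay much closer to each other than to the other group. FGR shares no stretch of 50 bases with another gene. FYN, of the same family, had 9.33 and 14.3 TPM in NC against 7.62 and 5.97 TPM in sh-ANP32B. Its log2 difference was -0.70 (adjusted p = 0.0490 from limma), and the call was lost without NC replicate 2 (-0.41, adjusted p = 0.167 from limma), without sh-ANP32B replicate 1 (adjusted p = 0.0538) and without sh-ANP32B replicate 2 (adjusted p = 0.154). It was also lost with the replicate block (adjusted p = 0.0778) and with no filter on low values (adjusted p = 0.0520). SRC was not listed.

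By mean level, the order in NC was SYK, LYN, TYROBP, FCGR2A, FCER1G, FCGR1A, FGR, FCGR2C and FCGR2B. The neighbours FCGR2A and FCER1G overlapped, as did FCGR2C and FCGR2B. In sh-ANP32B the order was TYROBP, FCER1G, SYK, LYN, FCGR2A, FGR, FCGR1A, FCGR2C and FCGR2B, and here FCGR2A overlapped FGR and FCGR1A overlapped FCGR2C.

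**Figure D3:**
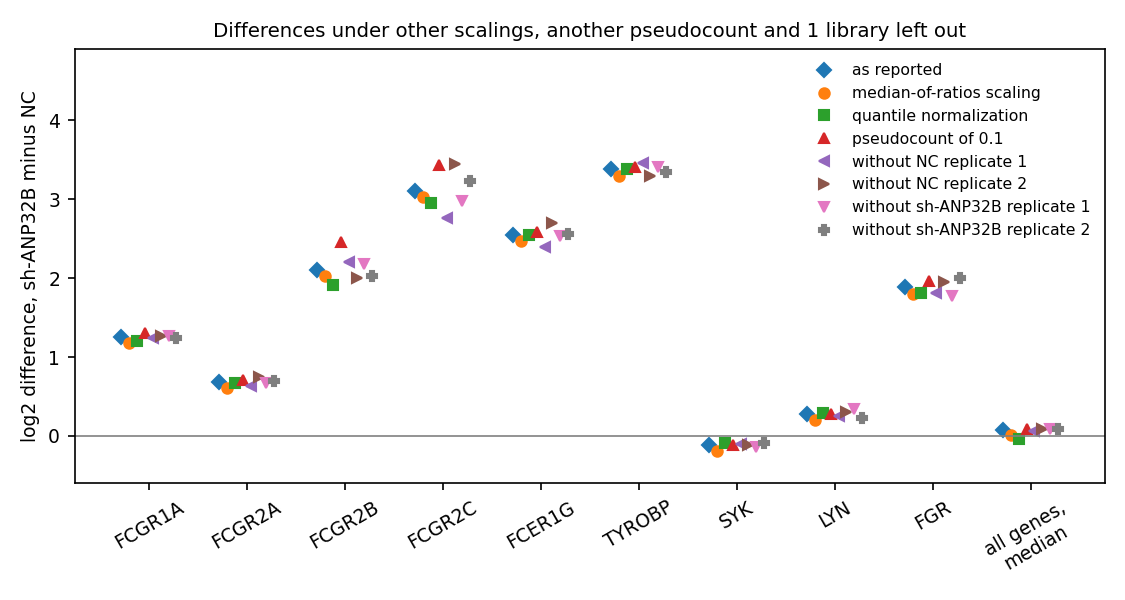
Log2 difference (sh-ANP32B minus NC) of each of the 9 genes, and the median of all genes tested, as reported and under other scalings, a pseudocount of 0.1, or with 1 library left out. SYK stays below 0 and the other 8 genes above 0 at every setting drawn. FCGR2C has the widest spread among the settings that leave out a library, from 2.76 to 3.45.

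Genes of the wider pathway that are not among the 9 were followed in 5 lists. Of other receptors that signal through FCER1G, TYROBP or SYK, 12 of the 13 tested were called higher and 0 lower, beside 17.9% and 10.1% of all genes tested. Their median log2 difference was 1.27. CD300E, a TYROBP-coupled receptor of monocytes, had 0.126 and 0.289 TPM in NC and 8.70 and 8.92 TPM in sh-ANP32B (log2 difference 3.02, adjusted p = 2.32e-04 from limma). SIGLEC15 had a difference of 1.71 (adjusted p = 0.00105 from limma) and SIGLEC14, a TYROBP-coupled lectin, one of 1.57 (adjusted p = 1.46e-04 from limma). CLEC7A, the beta-glucan receptor that recruits SYK, was listed at 0 in NC replicate 1 and had 0.106 TPM in NC replicate 2, against 1.34 and 1.46 TPM (adjusted p = 0.0108 from limma), and its call was lost without NC replicate 1 (adjusted p = 0.0592). LILRA6 was likewise listed at 0 in NC replicate 1 and had 0.0156 TPM in NC replicate 2, against 2.13 and 2.35 TPM, and its sequence is close to that of LILRB3. CD300E, CLEC7A and LILRA6 entered the test only through the sh-ANP32B libraries. OSCAR was the gene tested and not called. With at least 1 TPM required in every library, 9 of 10 were called. TREM1 and TREM2 were not listed.

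**Figure D4:**
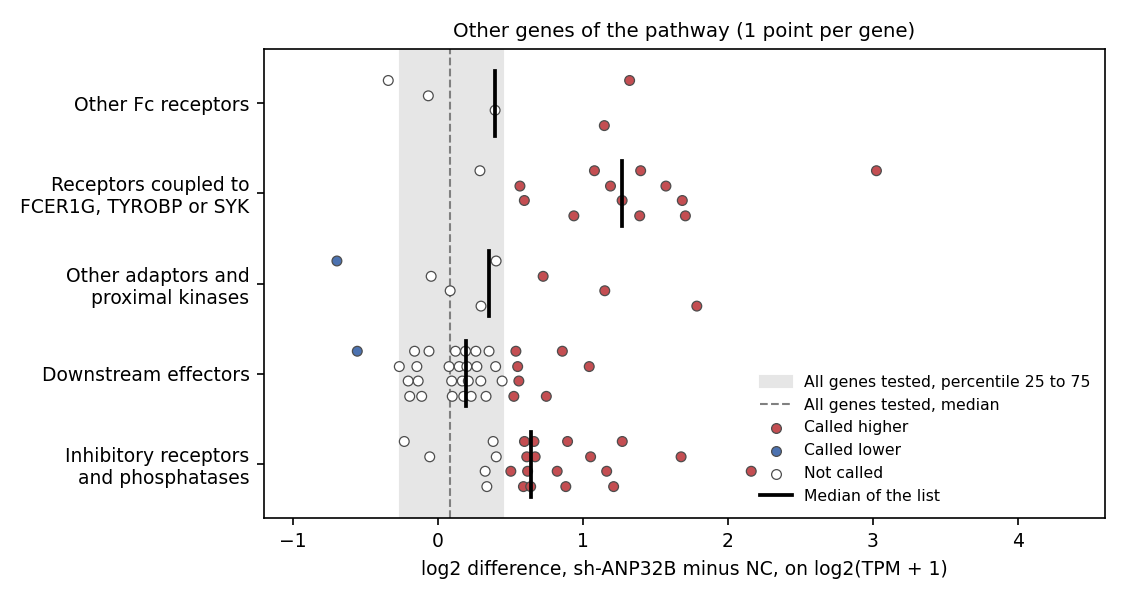
Log2 difference (sh-ANP32B minus NC) of each tested gene in 5 lists of the wider pathway, with red for called higher, blue for called lower and white for not called, a black bar at each list's median, and the central range and median of all genes tested in grey. The medians run from 0.19 for the downstream effectors to 1.27 for the receptors coupled to FCER1G, TYROBP or SYK.

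Of 5 other Fc receptors tested, 2 were called higher and 0 lower, beside 17.9% and 10.1% of all genes tested, with a median difference of 0.39. FCGRT, the neonatal Fc receptor that protects IgG from breakdown, had 90.4 and 93.2 TPM in NC and 198 and 212 TPM in sh-ANP32B (log2 difference 1.15, adjusted p = 1.17e-04 from limma). FCAR, the IgA receptor that also signals through FCER1G, had 0.287 and 0.158 TPM against 1.53 and 2.68 TPM (adjusted p = 0.0124 from limma). FCAR entered the test only through the sh-ANP32B libraries, and with 1 TPM required in every library 1 of 4 was called. The call of FCAR was lost without NC replicate 2 (adjusted p = 0.0525) and without sh-ANP32B replicate 2 (adjusted p = 0.0541). FCER2, FCRLB and TRIM21 were not called.

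Of 8 other adaptors and proximal kinases tested, 3 were called higher and 1 lower, beside 17.9% and 10.1% of all genes tested, with a median of 0.35. The lower call was FYN, given above. HCST, the adaptor DAP10, lies 23 bases from TYROBP and had 67.2 and 52.9 TPM in NC against 201.5 and 215 TPM (log2 difference 1.79, adjusted p = 2.54e-04 from limma). HCST was above TYROBP in NC, with ratios of 1.66 and 1.48, and below it in sh-ANP32B, with ratios of 0.509 and 0.517. PTPRC (CD45), the phosphatase that keeps SRC family kinases ready, had a difference of 1.15 (adjusted p = 9.18e-05 from limma). CSK, the kinase that restrains them, had 137 and 157 TPM in NC and 161 and 150 TPM in sh-ANP32B, and the groups overlapped (adjusted p = 0.416 from limma). CD247 and ZAP70, the adaptor and kinase of the T cell receptor, were not listed.

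Of the downstream effectors 7 of 34 were called higher and 1 lower, beside 17.9% and 10.1% of all genes tested, with a median of 0.19. RAC2, the GTPase of the phagocyte oxidase, had 195.2 TPM in both NC libraries and 397 and 410 TPM in sh-ANP32B (log2 difference 1.04, adjusted p = 8.12e-05 from limma). PRKCD had a difference of 0.86 (adjusted p = 1.55e-04 from limma) and PIK3R5 one of 0.75 (adjusted p = 0.00202 from limma). VAV1, an exchange factor for RAC proteins, and WAS, which drives actin assembly, had differences of 0.55 (adjusted p = 9.13e-04 from limma) and 0.56 (adjusted p = 9.83e-04 from limma). A negative difference was found for 9 of the 34. Of these CRKL, an adaptor protein, was the gene called lower, with 70 and 69 TPM against 47.0 and 46.8 TPM (log2 difference -0.56, adjusted p = 6.46e-04 from limma). Of the other effectors named for their role, none passed the fold limit. The phospholipase PLCG2 had a difference of 0.35 (adjusted p = 0.00455 from limma) and BTK, a TEC family kinase, one of 0.17 (adjusted p = 0.0291 from limma). The scaffold LCP2 had a difference of 0.40 (adjusted p = 0.00204 from limma) and LAT2 one of -0.14 (adjusted p = 0.0874 from limma). CARD9, which links SYK to NF-kB, had one of 0.44 (adjusted p = 0.00137 from limma). With median-of-ratios scaling the list had 4 calls in place of 8, and VAV1 and WAS were among those lost. VAV1 was also lost without sh-ANP32B replicate 1, where its difference fell just inside the limit.

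Of inhibitory receptors and phosphatases, which limit ITAM signals, 17 of 23 were called higher and 0 lower, beside 17.9% and 10.1% of all genes tested, with a median of 0.64. CLEC4A, LILRB2 and LILRB3 entered only through the sh-ANP32B libraries, and with 1 TPM required in every library 14 of 20 were called. LILRB2 and LILRB3 were named after their values were seen. With a fold limit of 1 in place of 0.5 the count was 6. MILR1 had 6.24 and 5.51 TPM in NC and 31.8 and 27.7 TPM in sh-ANP32B (log2 difference 2.16, adjusted p = 1.79e-04 from limma). PILRA had a difference of 1.68 (adjusted p = 7.87e-04 from limma), and PECAM1 one of 1.27 (adjusted p = 1.37e-04 from limma). CLEC4A had 0.337 and 0.828 TPM against 2.34 and 2.92 TPM (adjusted p = 0.0124 from limma), and its call was lost without NC replicate 1 (adjusted p = 0.0531) and without sh-ANP32B replicate 2 (adjusted p = 0.0545). PTPN6 (SHP-1), the phosphatase that inhibitory receptors recruit, had 124 and 133 TPM in NC and 201 and 207 TPM in sh-ANP32B (log2 difference 0.66, adjusted p = 3.98e-04 from limma), and the adaptor DOK3 had a difference of 0.64 (adjusted p = 3.01e-04 from limma). SIRPA, at 0.34, was inside the fold limit. INPP5D (SHIP1), the lipid phosphatase through which FCGR2B acts, had 124 and 138 TPM in NC and 127 and 125 TPM in sh-ANP32B, and the groups overlapped (adjusted p = 0.466 from limma). These lists hold members of receptor families whose genes resemble each other, so the levels of single members carry the doubt given above for FCGR2B and FCGR2C.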

How the data were processed

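RNA of 4 MV4-11 libraries was analysed. The authors aligned reads to hg38 with HISAT2 (version 2.0.5, from the submitters' processing notes) and deposited TPM per gene; quantifier, annotation and strand setting are not given in the sources used here. Read numbers cannot be had from TPM, so neither depth nor counting error is given. Of 18885 gene identifiers, 17290 had a symbol in GENCODE 44. The 16937 genes that reached 1 TPM in 2 or more libraries were compared with limma 3.58.1 (R 4.3.3; lmFit, eBayes with trend) on log2(TPM + 1), a pseudocount of 1, with Benjamini-Hochberg adjustment. The fit was run on simulated data with independent noise and changes in far fewer genes than were called here. That run does not test the calls made on these libraries. Alternatives were a replicate block, other filters, pseudocounts, scalings and limits, and each library left out. The genes, lists and tests were chosen with earlier results of these data known. Besides the 9 genes, the text names up to 4 called genes with the highest and 3 with the lowest difference per list, genes fixed for their role, and the 3 genes nearest to TYROBP and to FCER1G over the libraries. Shared stretches were counted in the canonical GENCODE transcript against the transcripts of other genes, either strand. With 2 libraries a group, each p rests on the variance limma shares across genes. Some genes that these rules name are not reported here.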

Additional observations from a re-analysis of the deposited data

How the results depend on the processing

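Each of the 9 genes kept its direction under all 10 alternatives run, and their median log2 difference stayed between 1.77 and 2.00. The difference of ANP32B stayed between -2.86 and -2.72. Quantile normalization moved the median of all genes by -0.12 on the log2 scale, to -0.04, and calls lower made up 50.2% of all calls in place of 36.1%; median-of-ratios scaling gave 47.1%. Relative to the median of all genes as reported, LYN differed by 0.20 and SYK by -0.19. A fold limit of 1 in place of 0.5 left 1409 of 4736 calls over all genes, 1 of 8 among downstream effectors, 2 of 4 among other adaptors and kinases, and 6 of 17 among inhibitory genes, since the limit is stricter. Median-of-ratios scaling left 4 calls among the downstream effectors. With at least 1 TPM in every library, 1 of the 2 other Fc receptors called was left, as FCAR was no longer tested, and with a library left out this count ranged from 1 to 3. The sign of CSK changed under median-of-ratios scaling (-2.1e-05) and without NC replicate 1, and that of INPP5D without NC replicate 2. With a library left out CSK ranged from -0.014 to 0.18 and INPP5D from -0.13 to 0.015, and neither was called. For CSK and INPP5D the cause was not tested.

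The deviations of same-numbered libraries from the group mean were not related (correlation -0.0232 over 16937 genes). This cannot show whether same-numbered libraries were prepared together, and the labels do not say. With the replicate block, 4524 genes were called in place of 4736, and 11 of the receptors coupled to FCER1G, TYROBP or SYK in place of 12. FYN was no longer called (adjusted p = 0.0778 from limma). Depth limits what can be said of genes near 1 TPM, and the file gives none.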
